A study of Mus musculus with 9 samples.

Results

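The genes described here are 8 mouse genes that make, remove or bind phosphatidylinositol 4-phosphate (PI4P), most of them at the Golgi and its contacts. They were chosen by name and not by a cut on their values, though with earlier results of these data known, out of 21899 genes counted in N2a cells. They are the PI4 kinases Pi4ka, Pi4kb, Pi4k2a and Pi4k2b, the PI4P phosphatase Sacm1l, and the PI4P-binding proteins Osbp, Plekha3 and Plekha8. All 8 were among the 12448 genes that passed the filter on low counts.

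PI4P is the lipid mark of the trans-Golgi network. PI4 kinases make it there, in part on membranes that carry the small GTPase Arf1, and PI4P and Arf1 together recruit coat proteins and lipid-transfer proteins. Oxysterol-binding protein (Osbp) bridges the endoplasmic reticulum (ER) and the Golgi, brings cholesterol to the Golgi and carries PI4P back to the ER, where the phosphatase SAC1 (Sacm1l) removes its phosphate. FAPP1 (Plekha3) and FAPP2 (Plekha8) bind PI4P and Arf1, and FAPP2 also transfers glucosylceramide.

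The study asked how loss of Arf1 alters lipid metabolism in N2a (Neuro-2a) cells, an established mouse neuroblastoma line that the labels describe as neuroblasts from brain. Polyadenylated RNA was sequenced from cells with 1 of 3 hairpins, each carried by a pLKO.1 vector with puromycin resistance. The control hairpin, shlucif, is directed against luciferase. The hairpins shArf1-1 and shArf1-2 are directed against Arf1, and cells with either are called Arf1-deficient. Each hairpin had 3 libraries and no other treatment, and the labels do not say whether libraries of a hairpin came from separate cultures, so the tests measure the spread between these libraries. The deposited columns carry shorter names than the labels, and those with the number 2 directly after the gene name were read as shArf1-2.

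The libraries held between 11182479 and 15594615 counts. Arf1 itself (chromosome 11, 59211412 to 59228270, minus strand; all positions are of GRCm38) was at 328, 316 and 328 FPKM with shlucif, at 130, 128 and 127 FPKM with shArf1-1, and at 166, 157 and 171 FPKM with shArf1-2, where FPKM is the count scaled to the length of the gene and to the total of the library. In edgeR's fit after TMM scaling, the knockdown left 0.38 of the control level with shArf1-1 and 0.48 with shArf1-2. Log2 fold changes and percent changes below come from such fits unless another setting is named, so they can differ from ratios of mean FPKM. The first principal component of all tested genes separated shlucif from both Arf1 hairpins and took 84.0% of the variance. Of 12 macrophage and microglia markers, 10 were above 3 counts in shlucif libraries and 1, Cd68, in Arf1-deficient libraries, while 8 were at 0 in every shArf1-1 library and 8 in every shArf1-2 library, with Itgam, C1qb, Spi1 and Ctss at 0 in both groups. Their summed level was 121 to 147 FPKM with shlucif, 0.394 to 0.571 FPKM with shArf1-1 and 0.415 to 0.499 FPKM with shArf1-2. The 12 markers of noradrenergic neuroblasts summed to 850 to 870 FPKM with shlucif, 1229 to 1386 FPKM with shArf1-1 and 1220 to 1308 FPKM with shArf1-2. Of these, 11 were above 3 counts in at least 1 library of each group. The summed level of 6 fibroblast markers was 1.74 to 1.99 FPKM with shlucif and 1.05 to 1.502 FPKM in Arf1-deficient cells, and that of 6 astrocyte and oligodendrocyte markers was 5.36 to 5.43 FPKM against 3.75 to 4.54 FPKM. Because both hairpin comparisons use the same shlucif libraries, whatever distinguishes these libraries enters every difference from control below. Its part in the changes of the PI4P genes was not tested, and in bulk RNA fewer cells of a type and less RNA per cell cannot be told apart.

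The hairpin targets are shown because both comparisons rest on them and because parts of them recur in 3 of the 8 transcripts. Capitals mark the bases that pair with bases 2 to 8 of the guide strand (its seed), if the guide is the full complement of the target. Both targets lie in the Arf1 coding sequence, in 2 of 2 annotated transcripts.
shArf1-1 target: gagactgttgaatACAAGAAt
shArf1-2 target: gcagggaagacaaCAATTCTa

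No transcript of the 8 genes came closer than 6 mismatches to a 21-base target. The 7-base seed match of shArf1-1 occurred once in the 3' UTR of Pi4k2b and once in that of Plekha8, and that of shArf1-2 once in the 3' UTR of Plekha3. The windows around these matches, read from the GENCODE transcripts of GRCm38, are given with the match in capitals.
Pi4k2b, bases 2232 to 2260 of the transcript, match to shArf1-1: cctttttgaaaACAAGAAataactgaaaa
Plekha8, bases 3145 to 3173 of the transcript, match to shArf1-1: tcttcctagcaACAAGAAgagtggctcca
Plekha3, bases 2201 to 2229 of the transcript, match to shArf1-2: tatacaaaaagCAATTCTgtcaagatgac

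Such matches are common. Among 12362 tested genes with an annotated 3' UTR, 18.4% held the shArf1-1 match and 10.5% the shArf1-2 match. They are given as a description of the letters, and their part in any value was not tested.

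In control cells the 8 genes were expressed at moderate levels, and Osbp was the most abundant of them. With shlucif its mean was 21.4 ± 1.29 FPKM (SD, n = 3), followed by Pi4k2a at 16.2 ± 1.13 FPKM and Plekha3 at 14.4 ± 0.747 FPKM. Osbp was above Pi4k2a in every library, whereas the libraries of Pi4k2a and Plekha3 overlapped. Sacm1l (9.38 ± 1.44 FPKM), Pi4ka (8.83 ± 0.331 FPKM), Pi4kb (8.40 ± 0.218 FPKM) and Pi4k2b (8.20 ± 0.928 FPKM) formed a group whose neighbours did not separate. Plekha8 was lowest, at 4.15 ± 0.529 FPKM, below every library of Pi4k2b. The median tested gene was at 6.79 FPKM, so that only Plekha8 lay below it.

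The order changed with each Arf1 hairpin, with Osbp first and Plekha8 last in all 3 groups. With shArf1-1, Plekha3 (15.3 ± 1.31 FPKM) and Pi4ka (11.1 ± 0.268 FPKM) stood above Pi4k2a (10.3 ± 0.235 FPKM) in every library. With shArf1-2, Pi4k2a (12.3 ± 0.508 FPKM) was second, and Pi4ka (10.7 ± 0.203 FPKM) and Plekha3 (10.5 ± 1.05 FPKM) overlapped. Pi4k2b and Plekha8, well separated in control cells, overlapped with shArf1-1 (5.43 ± 0.628 and 5.29 ± 0.155 FPKM).

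**Figure D1:**
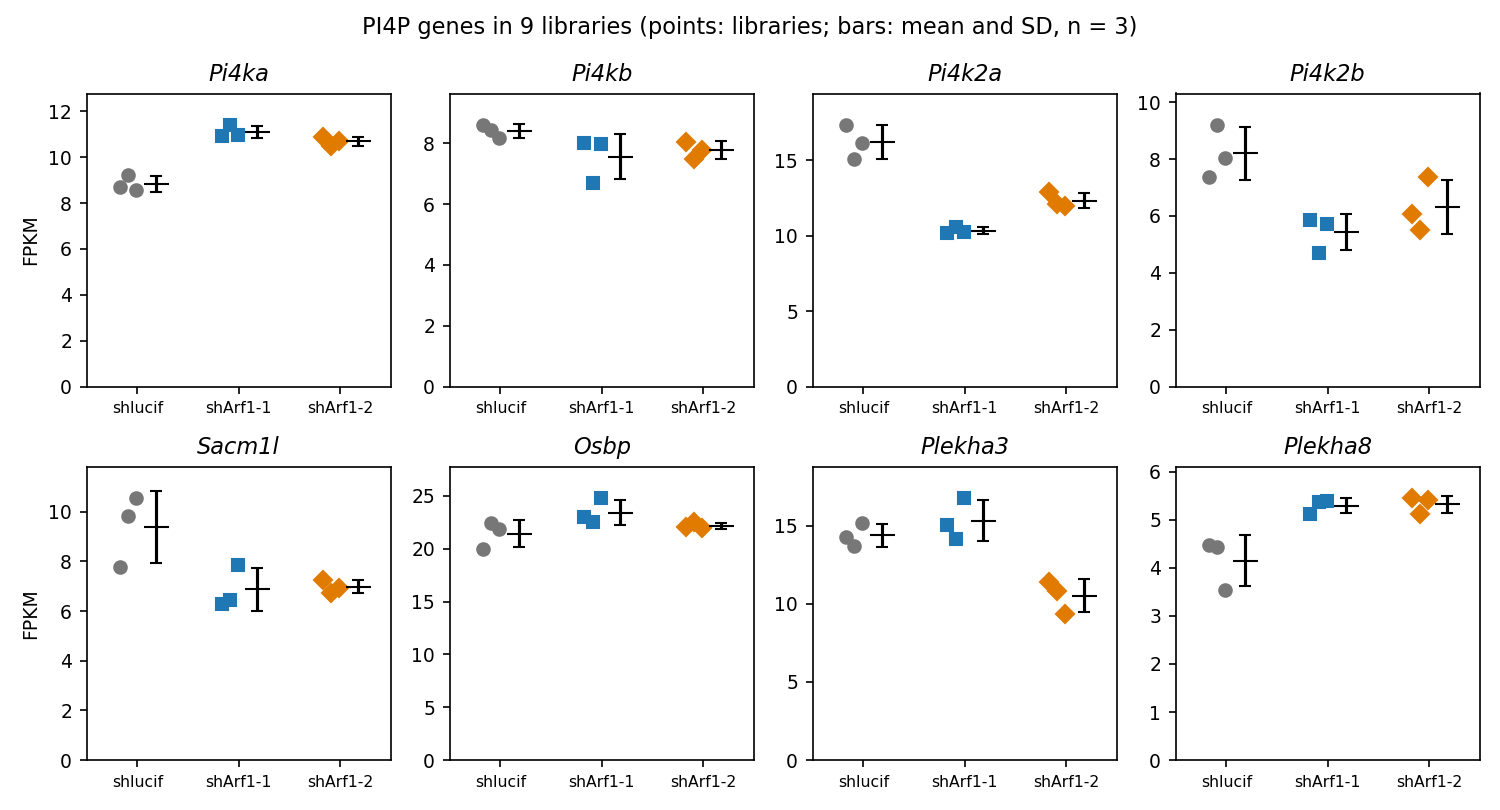
Level of each PI4P gene in FPKM (vertical axes, from 0) in 9 libraries, grouped by hairpin (horizontal axis). Points are libraries, and black bars are the mean and SD of 3. All Arf1-deficient points of Pi4k2a lie below, and those of Pi4ka and Plekha8 above, the shlucif points, and the shArf1-2 points of Plekha3 stand below the other 6.

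In Arf1-deficient cells the type II kinases Pi4k2a and Pi4k2b fell by 33.0% and 31.2%, and Sacm1l fell by 29.1%. Pi4ka was 18.1% and Plekha8 22.4% higher than in control cells, Pi4kb was slightly lower, and Osbp and Plekha3 did not pass the test. With the 6 Arf1-deficient libraries set against the 3 shlucif libraries, edgeR's quasi-likelihood test placed 6 of the 8 genes under an adjusted p of 0.05, 2 higher and 4 lower. Of all 12448 genes tested, 64.5% passed (31.6% higher and 32.9% lower), and with 8 genes the count is near that share. The median log2 fold change of the 8 genes was -0.21, against 0.003 for all tested genes, and the median size regardless of sign was 0.27 against 0.37. With each hairpin alone, 6 of the 8 passed as well, 2 higher and 4 lower. This compares with 67.5% of all genes for shArf1-1 (33.1% higher and 34.4% lower) and 63.4% for shArf1-2 (30.9% higher and 32.6% lower). The 6 were not the same genes, as Pi4kb passed only with shArf1-1 and Plekha3 only with shArf1-2. In FPKM, the Arf1-deficient libraries lay wholly above or below the shlucif libraries for 4 of the 8 genes, against 59.2% of all genes, and did so for 6 of the 8 with each hairpin alone, against 70.2% for shArf1-1 and 69.1% for shArf1-2. The 6 with shArf1-1 include Osbp, which did not pass the test. The counts of genes without overlap depend on the scaling. After TMM scaling they were 6 of the 8 over both hairpins, 6 with shArf1-1 and 7 with shArf1-2. Pi4k2b and Sacm1l, which overlapped in FPKM over both hairpins, then lay wholly below the shlucif libraries. Osbp with shArf1-1 then overlapped the shlucif libraries. The shares of all genes without overlap given here are for FPKM. The comparisons with each hairpin share the shlucif libraries and are not independent of one another.

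Type II PI4 kinases are palmitoylated enzymes of the trans-Golgi network and endosomes. Pi4k2a (ENSMUSG00000025178, chromosome 19, 42090470 to 42122087, plus strand), the most abundant kinase in control cells, showed the largest change of the 8 over both hairpins and with shArf1-1, while with shArf1-2 the point estimates of Plekha3 and Sacm1l were larger. It was at 17.3, 15.1 and 16.1 FPKM with shlucif, at 10.2, 10.6 and 10.2 FPKM with shArf1-1 and at 12.9, 12.1 and 11.9 FPKM with shArf1-2. The 3 groups did not overlap, with shArf1-1 lowest and shArf1-2 between it and the control. In Arf1-deficient cells Pi4k2a fell by 0.58 on the log2 scale (SE 0.076, adjusted p = 2.06e-06), a decrease to 0.67 of control. The log2 fold change was -0.70 with shArf1-1 (SE 0.067, adjusted p = 2.09e-11) and -0.46 with shArf1-2 (SE 0.065, adjusted p = 1.45e-07). The difference between the hairpins, 0.24 (SE 0.067, adjusted p = 0.0146), passed the test. It no longer passed without shArf1-1 replicate 1 (0.23, adjusted p = 0.0605) or without shArf1-2 replicate 1 (0.20, adjusted p = 0.0980), whereas the fall with each hairpin passed whichever library was left out.

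Pi4k2b (ENSMUSG00000029186, chromosome 5, 52741574 to 52769340, plus strand), its paralog, which is partly cytosolic, was at 7.37, 9.20 and 8.04 FPKM with shlucif. With shArf1-1 it was at 5.86, 4.71 and 5.71 FPKM, and with shArf1-2 at 6.06, 5.51 and 7.38 FPKM. Every shArf1-1 library lay below the control, whereas shArf1-2 replicate 3 just exceeded shlucif replicate 1 in FPKM. The log2 fold change was -0.54 (SE 0.11, adjusted p = 0.000295) in Arf1-deficient cells, -0.64 with shArf1-1 (adjusted p = 5.92e-06) and -0.45 with shArf1-2 (adjusted p = 0.000608). The hairpins differed by 0.20 (95% confidence interval -0.03 to 0.43, adjusted p = 0.267), which did not pass. Pi4k2b carries the shArf1-1 seed match shown above, whose part in its values was not tested. The counts, from 198 to 463 per library, are the lowest among the kinases, and Pi4k2b has the widest interval of the 4.

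The type III kinases are Pi4kb and Pi4ka. Pi4kb (ENSMUSG00000038861, chromosome 3, 94974731 to 95006843, plus strand), the Golgi kinase that is recruited with Arf1, was at 8.60, 8.44 and 8.17 FPKM with shlucif, at 7.99, 6.71 and 7.97 FPKM with shArf1-1 and at 8.05, 7.49 and 7.79 FPKM with shArf1-2. All Arf1-deficient libraries were below all control libraries, by a narrow margin. Its log2 fold change of -0.19 (SE 0.080, adjusted p = 0.0415) lay close to the threshold and passed under 6 of 12 other settings, with a range of adjusted p from 0.0258 to 0.155. It passed with shArf1-1 (-0.20, adjusted p = 0.0443) and not with shArf1-2 (-0.18, adjusted p = 0.0708), and the difference between the hairpins was 0.02 (95% confidence interval -0.16 to 0.20, adjusted p = 0.924). Leaving out any shlucif library, shArf1-1 replicate 2, or shArf1-2 replicate 2 or 3 ended the call in the comparison of all Arf1-deficient libraries, with log2 fold changes from -0.17 to -0.21. In the annotation 10.5% of its exon bases overlap the antisense gene Gm15265 and 6.55% overlap Zfp687 on the opposite strand, and without knowledge of strand in the counting such reads cannot be told apart.

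Pi4ka (ENSMUSG00000041720, chromosome 16, 17280351 to 17406314, minus strand), which makes the PI4P of the plasma membrane, was the kinase that rose. It was at 8.70, 9.20 and 8.58 FPKM with shlucif, at 10.9, 11.4 and 10.96 FPKM with shArf1-1 and at 10.9, 10.5 and 10.7 FPKM with shArf1-2. The Arf1-deficient libraries were all above the control libraries. The log2 fold change was 0.24 (SE 0.055, adjusted p = 0.000753). Taken singly, shArf1-1 gave 0.28 (adjusted p = 8.62e-05) and shArf1-2 gave 0.20 (adjusted p = 0.00254), and the hairpins differed by -0.07 (95% confidence interval -0.19 to 0.05). Pi4ka has a listed length of 11254 bases, the longest of the 8. After a correction for gene length its change with shArf1-2 was 0.11 (adjusted p = 0.0908) and no longer passed, whereas the change over both hairpins stayed past the threshold under all 12 other settings, at 0.15 to 0.30, except against a minimum fold of 1.2.

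**Figure D2:**
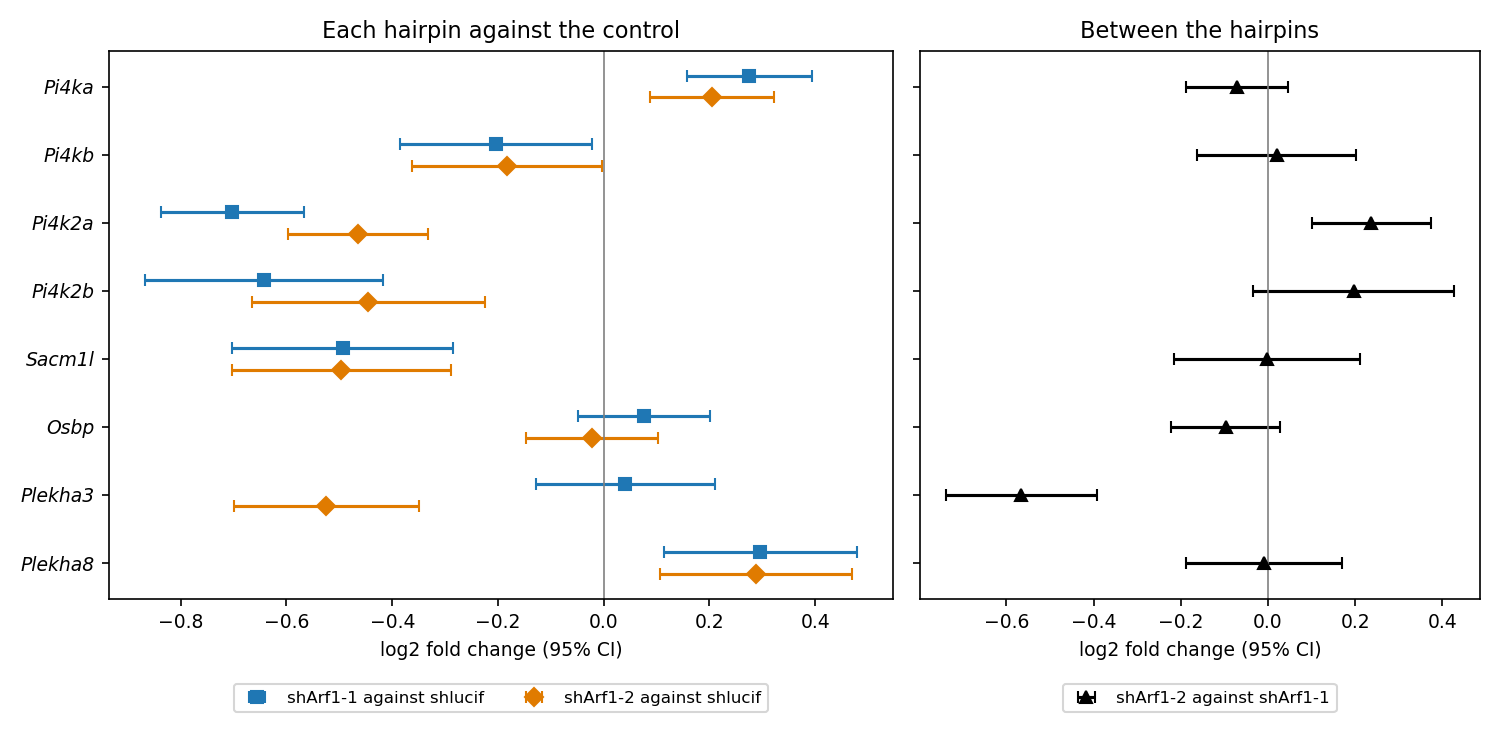
Log2 fold changes from edgeR's quasi-likelihood fit with 95% confidence intervals (horizontal axes) for the 8 genes (vertical axis). Left, each Arf1 hairpin against shlucif (3 libraries each); right, shArf1-2 against shArf1-1. Plekha3 stands at 0.04 with shArf1-1 and -0.52 with shArf1-2, while the intervals of the 2 hairpins overlap for the other genes.

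Taking the 4 kinases together per unit length, fewer kinase transcripts were present in Arf1-deficient cells and their make-up shifted from type II to type III. Their summed level was 41.6 ± 0.606 FPKM with shlucif, 34.4 ± 0.857 FPKM with shArf1-1 and 37.1 ± 1.30 FPKM with shArf1-2 (SD, n = 3), with no overlap between the groups. Type II enzymes made up 58.6% ± 0.602 of the sum in control cells, 45.8% ± 0.1002 with shArf1-1 and 50.2% ± 0.799 with shArf1-2. The share of Pi4ka was 21.2% ± 0.655, 32.3% ± 1.60 and 28.8% ± 0.576 in the same order. The ratio of Pi4ka to Pi4k2a went from 0.548 ± 0.0559 in control cells to 1.07 ± 0.00144 with shArf1-1 and 0.867 ± 0.0262 with shArf1-2. These sums and shares are descriptions and were given no test.

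**Figure D3:**
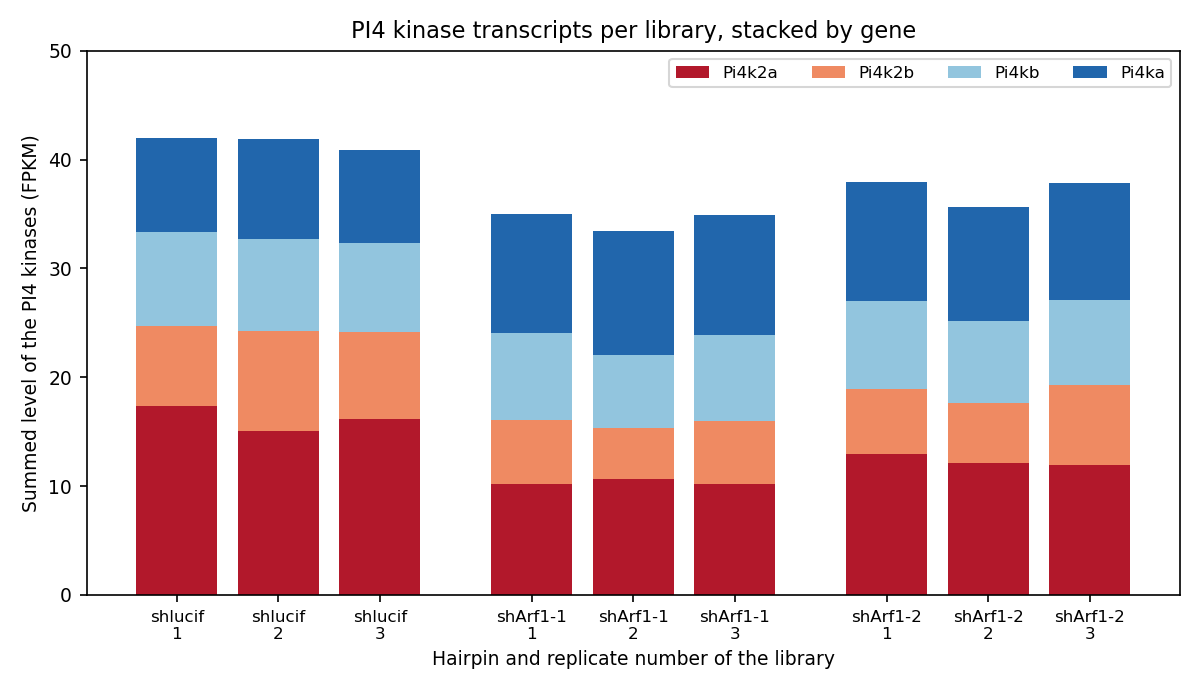
Level of the 4 PI4 kinases in FPKM, stacked (vertical axis, from 0), in each of 9 libraries (horizontal axis). The whole bar is highest in the 3 shlucif libraries (40.9 to 42.0 FPKM), and the red and orange lower part, the type II enzymes, is shorter in all 6 Arf1-deficient libraries.

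Sacm1l (ENSMUSG00000025240, chromosome 9, 123529759 to 123592600, plus strand) encodes SAC1, the ER phosphatase that consumes PI4P. It was at 7.76, 9.84 and 10.5 FPKM with shlucif, at 6.31, 6.46 and 7.86 FPKM with shArf1-1 and at 7.26, 6.74 and 6.93 FPKM with shArf1-2. The shArf1-2 libraries lay below every control library, and shArf1-1 replicate 3 reached slightly above shlucif replicate 1. The log2 fold change was -0.50 (SE 0.097, adjusted p = 0.000177) over both hairpins, -0.49 with shArf1-1 (adjusted p = 8.45e-05) and -0.50 with shArf1-2 (adjusted p = 8.02e-05), and the interval of the difference between the hairpins was -0.22 to 0.21. As both the phosphatase and the type II kinases fell, the ratio of Sacm1l to the summed kinases was 0.226 ± 0.0372 with shlucif, 0.200 ± 0.0232 with shArf1-1 and 0.188 ± 0.00425 with shArf1-2, and these ranges overlapped. In the annotation 48.2% of the exon bases of Sacm1l overlap the opposite-strand gene Slc6a20b, and whether counting used strand is not given in the sources used here. Slc6a20b was at 3 counts or fewer in every library, so few reads were assigned to it.

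Pi4k2a, Pi4k2b and Sacm1l fell with both hairpins, and their promoters are printed to show what letters they share. The sequences run from 250 bases before to 50 after the start site in RefSeq (GRCm38.p6), on the plus strand for all 3 genes. Capitals mark GC boxes (GGGCGG) and CCAAT boxes (CCAAT), each searched on both strands.
Pi4k2a, chr19:42090185-42090484: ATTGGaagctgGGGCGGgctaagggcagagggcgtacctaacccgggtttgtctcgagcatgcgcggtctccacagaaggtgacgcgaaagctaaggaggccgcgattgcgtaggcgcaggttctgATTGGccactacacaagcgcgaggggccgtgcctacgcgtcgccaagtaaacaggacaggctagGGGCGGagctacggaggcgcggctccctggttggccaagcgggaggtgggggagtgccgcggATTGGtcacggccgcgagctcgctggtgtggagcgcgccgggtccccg
Pi4k2b, chr5:52741324-52741623: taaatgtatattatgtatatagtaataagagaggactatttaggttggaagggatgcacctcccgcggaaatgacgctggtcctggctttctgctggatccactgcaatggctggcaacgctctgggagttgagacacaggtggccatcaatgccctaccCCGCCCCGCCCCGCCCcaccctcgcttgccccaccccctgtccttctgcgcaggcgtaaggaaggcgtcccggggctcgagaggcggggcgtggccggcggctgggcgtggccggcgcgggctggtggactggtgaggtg
Sacm1l, chr9:123529503-123529802: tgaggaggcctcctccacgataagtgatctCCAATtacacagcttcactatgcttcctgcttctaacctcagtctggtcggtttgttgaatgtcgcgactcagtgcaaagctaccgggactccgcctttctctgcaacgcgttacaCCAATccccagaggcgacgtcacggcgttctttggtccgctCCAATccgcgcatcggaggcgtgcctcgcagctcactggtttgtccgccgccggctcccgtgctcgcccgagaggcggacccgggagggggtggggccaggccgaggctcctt

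Pi4k2a had 2 GC boxes and 3 CCAAT boxes, Pi4k2b had 3 GC boxes and no CCAAT box, and Sacm1l had 3 CCAAT boxes and no GC box. Neither kind of box was therefore common to all 3. Of the 10 promoters listed for the 8 genes, 7 held a GC box and 5 a CCAAT box, against 35.7% and 37.4% of all 32851 promoters. The E-box CACGTG, present in 7.15% of all promoters, was in none of the 10. The GC content was 67.0% for Pi4k2a, 62.7% for Pi4k2b and 61.7% for Sacm1l, against a median of 52.7% for all promoters.

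Osbp (ENSMUSG00000024687, chromosome 19, 11965941 to 11994112, plus strand), the cholesterol and PI4P exchanger and the most abundant of the 8, stayed close to its control level. It was at 19.99, 22.5 and 21.8 FPKM with shlucif, at 23.0, 22.5 and 24.8 FPKM with shArf1-1 and at 22.1, 22.5 and 22.0 FPKM with shArf1-2. The shArf1-2 libraries lay in the upper part of the control range or level with its top, and the shArf1-1 libraries lay level with its top or above it. The log2 fold change was 0.03 (95% confidence interval -0.10 to 0.15, adjusted p = 0.705), 0.08 with shArf1-1 (-0.05 to 0.20) and -0.02 with shArf1-2 (-0.15 to 0.10). The intervals therefore leave room for changes of up to 0.20 on the log2 scale.

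Plekha3 (ENSMUSG00000002733, chromosome 2, 76675281 to 76696828, plus strand) encodes FAPP1, which binds PI4P and Arf1 through its pleckstrin homology domain. It was at 14.3, 13.7 and 15.2 FPKM with shlucif, at 15.1, 14.2 and 16.7 FPKM with shArf1-1 and at 11.4, 10.8 and 9.33 FPKM with shArf1-2. The shArf1-1 libraries overlapped the control libraries, and the shArf1-2 libraries were below all 6 others. The log2 fold change was 0.04 with shArf1-1 (SE 0.084, adjusted p = 0.675) and -0.52 with shArf1-2 (SE 0.086, adjusted p = 2.21e-06). The hairpins differed by -0.57 (SE 0.086, adjusted p = 1.33e-05), a difference that passed under all 13 other settings (-0.51 to -0.56) and whichever library was left out (-0.49 to -0.63). Of all tested genes 14.4% differed between the hairpins (6.98% higher and 7.46% lower with shArf1-2), and of the 8 genes 2 did, Pi4k2a higher and Plekha3 lower. In FPKM, 4 of the 8 had no overlap between the hairpins, against 30.1% of all genes. Plekha3 is the only one of the 8 with the shArf1-2 seed match, printed above, and the part of that match in the difference was not tested. Because the hairpins differ, the value over both hairpins, -0.22 (SE 0.17, adjusted p = 0.274), describes neither of them. Arf1 itself differed as well, being 0.34 higher on the log2 scale with shArf1-2 (SE 0.051, adjusted p = 1.16e-05).

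Plekha8 (ENSMUSG00000005225, chromosome 6, 54595111 to 54645839, plus strand) encodes FAPP2, the glucosylceramide transfer protein that shares the lipid-binding domain of FAPP1. It was at 4.47, 4.44 and 3.54 FPKM with shlucif, at 5.11, 5.37 and 5.38 FPKM with shArf1-1 and at 5.44, 5.11 and 5.404 FPKM with shArf1-2. Every Arf1-deficient library was above every control library. Its log2 fold change was 0.29 (SE 0.084, adjusted p = 0.00527), 0.30 with shArf1-1 (adjusted p = 0.00426) and 0.29 with shArf1-2 (adjusted p = 0.00557). The rise rested in part on the low shlucif replicate 3, without which it was 0.19 over both hairpins (adjusted p = 0.0697), 0.19 with shArf1-1 (adjusted p = 0.0708) and 0.19 with shArf1-2 (adjusted p = 0.0871). The ratio of Plekha8 to Plekha3 was 0.290 ± 0.0496 with shlucif, 0.347 ± 0.0297 with shArf1-1 and 0.510 ± 0.0598 with shArf1-2, with the last group apart from the others. In the transcripts, 3.68% of the 50-base stretches of Plekha8 and 2.21% of those of Plekha3 also occur in other genes, so nearly all of each gene can be counted uniquely.

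Over the 9 libraries, Adam19 (Pearson r = 0.993) and Avpi1 (r = 0.992) were among the 3 genes whose log2 level followed that of Pi4k2a most closely. Such r values were common in these data, as 14.3% of the other 12447 tested genes had r above 0.9, and the 9 points fall into 3 groups. Adam19, a membrane metalloprotease, was at 25.5, 17.1 and 20.4 FPKM on average with shlucif, shArf1-1 and shArf1-2. Avpi1 lies on the opposite strand, with its 3' end 1185 bases beyond the end of Pi4k2a, and was at 19.0, 8.98 and 12.3 FPKM in the same order.

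The wider PI4P pathway, 52 genes in 8 lists, changed in both directions. Of 51 tested genes, 33 passed in Arf1-deficient cells, 14 higher and 19 lower, and 29 changed the same way with either hairpin, 12 higher and 17 lower. This was 56.9% of those tested, against 56.3% of all tested genes (27.3% higher and 29% lower). Between the hairpins 5 of the 51 differed, against 14.4% of all tested genes, with Prkd2, Prkd3 and Inpp5e higher and Golph3 and Cdipt lower with shArf1-2, and these were named after their values were seen. Prkd3 was at 0 counts in every shArf1-1 library and at 0 to 5 with shArf1-2, so its difference rests on counts near 0. The changed genes named below have a log2 change of at least 0.5 over both hairpins together, and passed in a shared direction with each hairpin, except where stated.

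**Figure D4:**
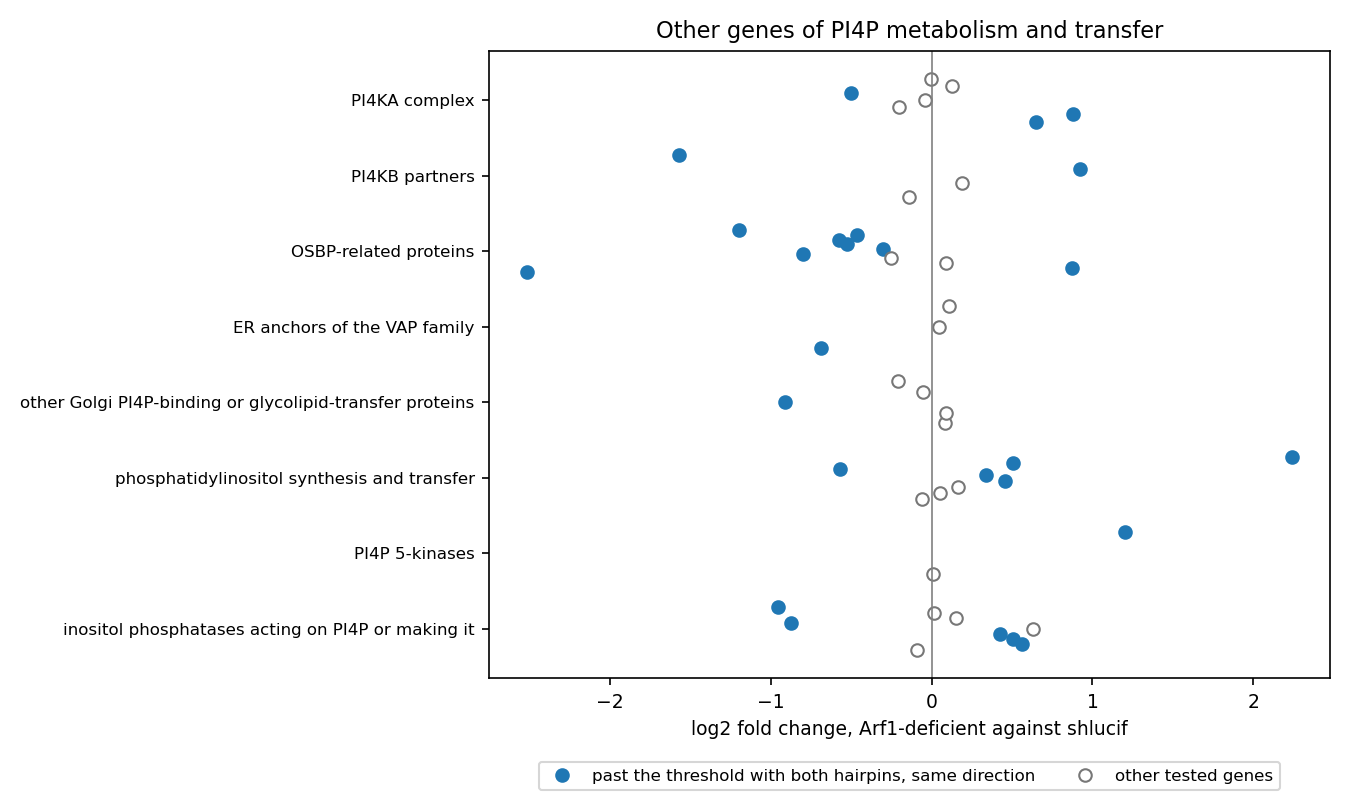
Log2 fold change in Arf1-deficient cells against shlucif (horizontal axis) for 48 other genes of PI4P metabolism and transfer, 1 point per gene, by list (vertical axis). Filled points, 26 in all, passed with each of the Arf1 hairpins in a shared direction; Osbpl3, Pip5k1b and Prkd3, at or near 0 in Arf1-deficient cells, are not drawn. Filled points of OSBP-related proteins lie on the lower side except Osbpl10.

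Relatives of Osbp, which carry sterols or phospholipids in exchange for phosphoinositides, were mostly lower. Of 11 such genes, 9 were lower and 1 higher, against 32.9% and 31.6% of all tested genes, and 8 were lower with both hairpins, against 29% of all tested genes. Osbpl9 fell by 1.199 on the log2 scale (SE 0.063, adjusted p = 6.25e-12), from 15.3 FPKM to 6.62 FPKM with shArf1-1 and 7.33 FPKM with shArf1-2. Osbpl2 fell by 0.80 (adjusted p = 5.83e-09), Osbpl7 by 0.57 (adjusted p = 0.000147) and Osbpl6 by 0.53 (adjusted p = 2.41e-07), whereas Osbpl10 rose by 0.87 (adjusted p = 5.90e-07). Osbpl3 was at 25 to 45 counts with shlucif and at 0 in every Arf1-deficient library, at least 13.1-fold lower against a floor of 3 counts per library. Osbp2 was low throughout, with 18 to 25 counts with shlucif and 1 to 9 in Arf1-deficient cells. Osbpl3, and Prkd3 and Pip5k1b of the other lists, are counted wholly or almost wholly in the same libraries as the macrophage markers above. The part of those markers in these differences was not tested.

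Partners of the type III kinases moved in both directions. Of the 7 genes of the PI4KA complex 2 were higher and 2 lower, against 31.6% and 32.9% of all tested genes. The membrane anchors Efr3a (0.65, SE 0.054, adjusted p = 4.57e-09) and Efr3b (0.88, SE 0.11, adjusted p = 5.91e-07) rose with both hairpins, while the scaffold genes Ttc7b (-0.003, adjusted p = 0.971) and Fam126b (-0.04, adjusted p = 0.712) did not pass. Of their paralogs, Fam126a was lower over both hairpins (-0.20, adjusted p = 0.0104) and with shArf1-1 (-0.26, adjusted p = 0.000599). It did not pass with shArf1-2 (-0.14, adjusted p = 0.0503). Tmem150a, the other lower gene of the complex, fell with both hairpins (-0.498 over both, adjusted p = 0.00311). Ttc7 did not pass over both hairpins (0.13, adjusted p = 0.194) and was higher with shArf1-2 (0.21, adjusted p = 0.0396). Of the genes that act on PI4KB, Ncs1, a calcium sensor that stimulates the kinase, rose by 0.92 (adjusted p = 8.04e-11), from 12.5 FPKM to 24.8 FPKM with each hairpin. Prkd2, a protein kinase D that phosphorylates PI4KB at the Golgi, fell by 1.57 (adjusted p = 1.39e-09). Prkd3 was at 112 to 154 counts with shlucif and at 5 or fewer in Arf1-deficient libraries, and Prkd1 was at 1 count or fewer in every library and was not tested. The PI4KB adaptor Acbd3 (-0.14, adjusted p = 0.0644) did not pass over both hairpins or with shArf1-1 (-0.06, adjusted p = 0.405), and was lower with shArf1-2 (-0.22, adjusted p = 0.00145).

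Of 8 genes of phosphatidylinositol synthesis and transfer, 5 were higher and 1 lower, against 31.6% and 32.9% of all tested genes, with Pitpnm2 higher (0.51, adjusted p = 0.000291) and Pitpnm1 lower (-0.57, adjusted p = 1.54e-06). Pitpnm3 passed at very low counts, 1 to 5 with shlucif and 8 to 24 in Arf1-deficient cells. Pip5k1c, which turns PI4P into the plasma membrane lipid PI(4,5)P2, rose by 1.204 (SE 0.086, adjusted p = 7.61e-10), from 8.41 FPKM to 21.5 FPKM with shArf1-1 and 19.0 FPKM with shArf1-2. Its relative Pip5k1b was at 18 to 31 counts with shlucif and at 0 in every Arf1-deficient library, at least 8.93-fold lower against the same floor. Of 9 inositol phosphatases 4 were higher and 2 lower, a count near the 64.5% of all tested genes that passed, with Inpp5b (0.56, adjusted p = 9.26e-06) and Inpp5e (0.50, adjusted p = 0.000188) higher and Synj2 (-0.96, adjusted p = 1.66e-08) and Inpp5k (-0.87, adjusted p = 6.89e-07) lower.

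Among the remaining Golgi and ER contact genes, 1 of 5 and 1 of 3 passed, both lower. Of all tested genes, 64.5% passed in either direction and 32.9% were lower. Gltp, a cytosolic glycolipid transfer protein, fell by 0.91 (SE 0.087, adjusted p = 2.99e-08), from 20.2 FPKM to 10.3 FPKM with shArf1-1 and 12.1 FPKM with shArf1-2. Mospd2, an ER protein that anchors lipid-transfer proteins, fell by 0.68 (adjusted p = 5.47e-07). The ER anchors of Osbp, Vapa (0.05, adjusted p = 0.633) and Vapb (0.11, adjusted p = 0.0744), the ceramide transfer protein Cert1 (0.08, adjusted p = 0.441) and the PI4P-binding Golgi protein Golph3 (-0.05, adjusted p = 0.624) did not pass.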

How the data were processed

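The authors deposited 1 table that holds, for each gene and library, an unnormalized read count and an FPKM. This deposited FPKM equals the count divided by the listed length and the library's total, within a relative deviation of 1.89e-07. The submitters' processing notes name mm10. The aligner, the counting tool and the use of strand are not given in the sources used here. The table's own positions mostly differ from GENCODE M21 (514 of 21795 identifiers share a start), so positions are those of GRCm38 by identifier. The 8 broken annotation lines were left out.

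Counts were analysed with edgeR 4.0.16 (filterByExpr, TMM, robust glmQLFit, glmQLFTest) and limma 3.58.1 in R 4.3.3, with a fit of 2 groups and a fit of 3 groups. Adjusted p is Benjamini-Hochberg over all 12448 tested genes, with 0.05 as the threshold. Tests were run on simulated counts with few changed genes and equal changes with both Arf1 hairpins. These data differ on both points, so that check does not establish the error rate here. Tables and figures were made with Python 3.11.15 and matplotlib 3.10.9. The depth of 11182479 to 15594615 counts per library sets the precision. Named genes are the 8 genes, Arf1, the 3 genes most like the one with the largest change, and at most 25 pathway genes past the threshold with the same direction with both hairpins and a log2 change of 0.5 or more. A gene that meets this rule is not reported here. Any other pathway gene was named with its values known. The members and all lists were chosen with earlier results of these data known. Alternatives were scaling by library size or by the upper quartile, DESeq2 1.42.0, no filter or a minimum of 10 counts in each library, limma on FPKM values as log2 with a pseudocount of 1 or 0.1, a minimum fold of 1.2 (glmTreat), a replicate block, a gene length correction, both together, a fit of 6 libraries and leaving out each library. The GC content correction was added after seeing the data. Same-numbered libraries were not paired by any label, and libraries of a group differed by more than sampling noise (chi-square per degree of freedom 2.97 to 8.31), so none was counted as a duplicate.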

Additional observations from a re-analysis of the deposited data

Results flagged for a closer look

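Osbp in shArf1-1 replicate 3, at 24.8 FPKM, stood apart from the other 5 Arf1-deficient libraries, which lay between 22.0 and 23.0 FPKM, by Dixon's criterion at 95%. Chance flags about 1 in 20 groups drawn from 1 population, and 8 genes were examined. These libraries pool both hairpins, and in FPKM every shArf1-2 library lay below every shArf1-1 library. That rate therefore need not hold here. The flagged library is also the deepest, with 15594615 counts.

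Pi4k2a changed less with shArf1-2 than with shArf1-1, by 0.24 on the log2 scale, and Plekha3 fell with shArf1-2 and did not pass the test with shArf1-1, with a difference of -0.57 between the hairpins. Both differences passed edgeR's quasi-likelihood test after adjustment over all genes. That of Pi4k2a no longer passed when certain single libraries were left out, as given above, whereas that of Plekha3 passed whichever library was left out. Arf1 itself was 0.34 higher with shArf1-2 than with shArf1-1 on the log2 scale. Whether the remaining Arf1 level bears on either gene was not tested.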

How the results depend on the processing

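No result changed direction past its threshold. Under a minimum fold of 1.2, 3 of the 8 genes passed over both hairpins and 3 with shArf1-1, and 1 between the hairpins, while all genes called numbered 5177 over both hairpins, 4926 with shArf1-2 and 189 between the hairpins, where no gene of the wider lists passed (0 in place of 5; 12 passed with a replicate block and GC correction together, and 11 with GC correction alone). Between the hairpins the wider lists had 3 genes past the threshold with limma on log2(FPKM + 1) and 2 on log2(FPKM + 0.1). Leaving out 1 library at a time, the counts between the hairpins were 1 to 2 of the 8 genes, 1 to 7 genes of the wider lists and 1188 to 1994 genes in all. Per kilobase after TMM scaling, the summed kinase level with shlucif was 42.9 in place of 41.6 FPKM. Of the single-gene values, 39 kept their direction and no longer passed, most of them Pi4kb. The same replicate numbers in the labels did not mark pairs: the correlation of deviations ran from -0.08 to 0.09 over 9 same-numbered pairs, and with the replicate block 7808 in place of 8027 genes passed over both hairpins, and 6 of the 8 genes. The causes of these shifts were not tested.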
